A study of Mus musculus with 2 samples.

Results

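The genes described are the 36 aminoacyl-tRNA synthetase genes, 20 encoding cytosolic enzymes and 16 encoding mitochondrial enzymes, out of 24013 gene symbols in the table. They were taken by name from a fixed list of symbols with no cut on a measured value, though earlier results of these data were known. Where a gene had several transcript rows, that with the highest mean over the libraries was used. Gars and Kars are counted among the cytosolic genes although each also gives the mitochondrial enzyme for its amino acid. All 36 were in the table and all 36 had a mean of at least 50 normalized counts, as did 10518 genes in all.

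Transcripts were sequenced from CD8 T cells of C57BL/6 mouse spleens, 1 library from DGKζ-/- animals aged 6 weeks and 1 library from wild-type animals aged 7 weeks. Both cultures started from naive cells and received antibodies to CD3 and CD28, bound to the plate, for 24 hours. DGKζ removes diacylglycerol, the lipid messenger that passes the antigen receptor signal to Ras and protein kinase C, and the design asks which transcripts differ when it is missing. The labels leave out the number of animals per library, their sex and the deleted exons.

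Aminoacyl-tRNA synthetases join each amino acid to its own tRNA with the energy of ATP, and so set the supply of charged tRNA for the ribosome. Separate nuclear genes encode the cytosolic set and, for most amino acids, a mitochondrial set that serves the small number of proteins made inside mitochondria. When charged tRNA runs short, uncharged tRNA activates the kinase GCN2, which lowers general translation and raises translation of the transcription factor ATF4, and many cytosolic synthetase genes are known targets of ATF4. T cells raise protein synthesis steeply when they are activated.

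With 1 library per genotype no difference has a replicate check, and no test across replicates was possible. Genotype cannot be told apart from age, culture or any other way in which the libraries differ, sex included: the X-inactivation RNA Xist had 9206 normalized counts in the DGKζ-deficient library and 14.0 in the wild-type library. Counted over 1 transcript row per gene, the DGKζ-deficient library held 13464169 reads and the wild-type library 37211969. Over all rows these were 19814735 and 55330091. Dgkz itself was read at 2591 and 6714 normalized counts, a fold of 0.386 (95% counting interval 0.366 to 0.407). The defining markers of CD8 T cells were present. The 7 genes summed to 38604 normalized counts in the DGKζ-deficient library and 48680 in the wild-type library. Lower values in the DGKζ-deficient library were found for 6 of the 7, at least 1.5-fold for 2, with a median log2 ratio of -0.47. Lck was the 1 higher gene, at a log2 ratio of 0.20. For scale, 5.07% of the 10518 genes compared were 1.5-fold lower in the DGKζ-deficient library and 1.29% were 2-fold lower. All 7 B cell markers had lower values in the DGKζ-deficient library, 5 of them at least 1.5-fold and 2 at least 2-fold, with a median log2 ratio of -0.83. They summed to 2065 against 2738 normalized counts, of which Cd74, nearly even, made up 1252 and 1287. Of the CD4 T cell markers, Cd4 stood at 53.2 against 171 and Zbtb7b at 48.0 against 57.1. The fold of Zbtb7b was 0.840 (0.531 to 1.29), an interval that includes 1. Of the NK cell markers, Klrd1 was read at 134 normalized counts in the DGKζ-deficient and 395 in the wild-type library (fold 0.339, 0.265 to 0.429), while Ncr1 and Klrb1c had 0 reads in the DGKζ-deficient library and 7 and 9 reads in the wild-type library. The 5 myeloid markers summed to 266 and 260, with Mpeg1 higher in the DGKζ-deficient library, at 185 against 127, and the other 4 lower, Cd68 at 70.3 against 93.9 among them. The activation markers were higher in the DGKζ-deficient library, with folds of 2.73 (2.57 to 2.90) for Cd44, 1.62 (1.57 to 1.68) for Cd69 and 1.31 (1.27 to 1.34) for Il2ra, a median log2 ratio of 0.70. The part of these cells, and of the state of activation, in the values below was not tested. In bulk RNA, fewer cells of a type and less RNA per cell cannot be told apart.

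Cytosolic synthetase transcripts were higher in the DGKζ-deficient library and mitochondrial ones were close to even. The 20 cytosolic genes together held 179634 normalized counts in the DGKζ-deficient library and 135795 in the wild-type library, a ratio of 1.32. The 16 mitochondrial genes held 18678 and 18047, a ratio of 1.03. All compared genes together held 2.30e+07 normalized counts in the DGKζ-deficient and 2.16e+07 in the wild-type library, so their sum was higher too. Synthetase genes took 0.859% of the reads counted over 1 transcript row per gene in the DGKζ-deficient library and 0.709% in the wild-type library. A normalized count is the authors' read count divided by the size factor of the library, and 1 read was worth 1.71 normalized counts in the DGKζ-deficient and 0.583 in the wild-type library.

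Each gene is compared by its fold, the ratio of normalized counts of the DGKζ-deficient over the wild-type library, with an exact 95% interval (Clopper-Pearson) that covers counting error only. A second measure, the log2 ratio, is log2((deficient + 10)/(wild type + 10)) and understates the change of low genes. A gene was called where its log2 ratio reached 2-fold or, in a second rule, 1.5-fold. No synthetase gene was called at 2-fold, so 0 of 36 were higher and 0 lower, where 1.3% of all compared genes were 2-fold higher and 1.29% were 2-fold lower. At 1.5-fold, 8 of the 20 cytosolic genes were called higher and 0 lower, and 0 of the 16 mitochondrial genes were called in either direction. Of all compared genes, 4.53% were 1.5-fold higher and 5.07% were 1.5-fold lower. With both libraries scaled to equal totals those shares were 3.45% and 6.79%, and 5 cytosolic genes were called, all among the 8.

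The sets differed in their median log2 ratio as well. The cytosolic genes had a median of 0.37 and the mitochondrial genes one of 0.10, against 0.05 for all compared genes, whose quartiles lay at -0.14 and 0.22. Of the cytosolic genes, 14 of 20 lay above that upper quartile and 1 lay below the lower one. Of the mitochondrial genes, 3 of 16 lay above and 2 below. Cytosolic log2 ratios spanned -0.33 to 0.86 and mitochondrial ones -0.32 to 0.32.

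**Figure D1:**
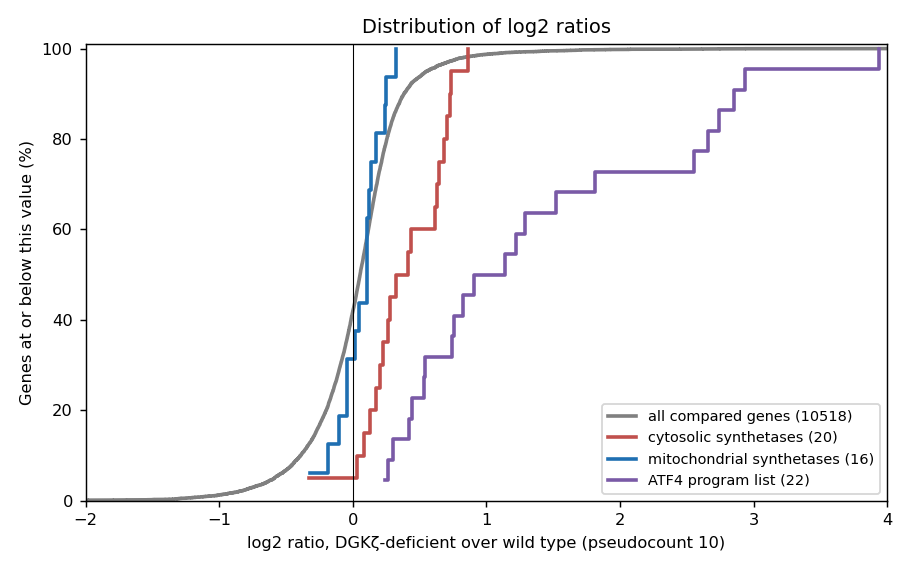
Cumulative share of genes, in percent, at or below each log2 ratio of the DGKζ-deficient over the wild-type library, for all 10518 compared genes, the 20 cytosolic synthetases, the 16 mitochondrial synthetases and the 22 measured genes of the ATF4 list. The mitochondrial genes end at 0.32, the cytosolic genes lie farther right up to 0.86, and the ATF4 genes reach 3.94.

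The 8 genes called higher encode the enzymes for cysteine, alanine, asparagine, leucine, serine, tyrosine, glycine and threonine. Cars, which charges cysteine, had the highest fold of all 36 genes, at 3919 normalized counts in the DGKζ-deficient library and 2155 in the wild-type library. Its fold was 1.82 (1.73 to 1.92), higher than 98.2% of compared genes by log2 ratio. Aars, the alanine enzyme, was read at 11825 and 7113 normalized counts (1.66-fold, 1.61 to 1.71). Cars was also the least abundant cytosolic synthetase per length in both libraries.

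Nars, which charges asparagine, was read at 14308 normalized counts in the DGKζ-deficient and 8614 in the wild-type library (1.66-fold, 1.62 to 1.71). Lars, the leucine enzyme that is also known as a leucine sensor for the growth kinase mTORC1, stood at 11158 and 6833 (1.63-fold, 1.58 to 1.68). Sars, the serine enzyme, stood at 10297 and 6423 (1.60-fold, 1.55 to 1.65). These 3 genes overlap one another and Aars in their counting intervals, while the lower bound of Cars lies above the upper bound of each.

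Yars, the tyrosine enzyme, was read at 5248 normalized counts in the DGKζ-deficient and 3357 in the wild-type library (1.56-fold, 1.496 to 1.63). Gars, the glycine enzyme of both compartments, stood at 16083 and 10412 (1.54-fold, 1.51 to 1.58). Tars, the threonine enzyme, stood at 8613 and 5615 (1.53-fold, 1.48 to 1.59). Each neighbour from Aars down to Tars overlaps the next in its interval, while Aars and Tars themselves do not overlap. Gars and Tars, the lowest of the 8, were not called at equal totals or when the median of all genes was set to 0, and Yars was not called at equal totals.

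**Figure D2:**
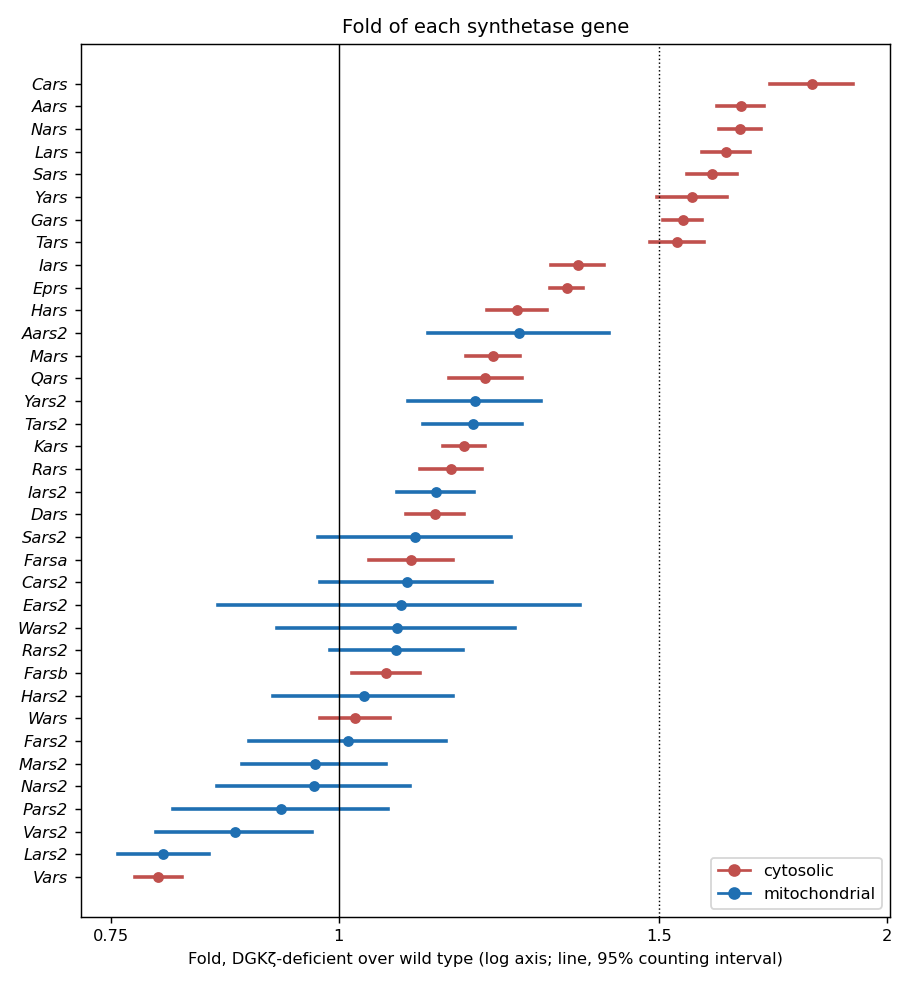
Fold of the DGKζ-deficient over the wild-type library for each of the 36 synthetase genes on a log axis, with lines for the 95% counting interval and a dotted line at 1.5. The 8 genes from Cars (1.82) to Tars (1.53) stand apart from the next gene, Iars (1.35), and Vars (0.796) is the lowest cytosolic gene.

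A gap in fold follows the 8 genes. Iars, the isoleucine enzyme, was read at 8604 normalized counts in the DGKζ-deficient and 6361 in the wild-type library, a fold of 1.35 (1.31 to 1.40), and the upper bound of this interval lies below the lower bound of Tars. Eprs, a fused enzyme that charges both glutamate and proline and the most abundant member by normalized counts, stood at 22007 and 16498 (1.33-fold, 1.31 to 1.36). The intervals of Iars and Eprs overlap.

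Lower still were the histidine, methionine, glutamine and lysine enzymes. Hars was read at 6498 and 5186 normalized counts in the DGKζ-deficient and wild-type libraries (1.25-fold, 1.21 to 1.30), and Mars at 8253 and 6788 (1.22-fold, 1.18 to 1.26). Qars stood at 4384 and 3642 (1.20-fold, 1.15 to 1.26). Kars, the lysine enzyme of both compartments, stood at 12977 and 11072 (1.17-fold, 1.14 to 1.20). Each of these genes had an interval above 1 and a log2 ratio above the upper quartile of all compared genes.

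The arginine, aspartate and phenylalanine enzymes lay between the quartiles of all compared genes. Rars was read at 6167 normalized counts in the DGKζ-deficient and 5350 in the wild-type library (1.15-fold, 1.11 to 1.20), and Dars at 6718 and 5947 (1.13-fold, 1.09 to 1.17). Farsa and Farsb, the subunits of the phenylalanine enzyme, had folds of 1.10 (1.04 to 1.16) and 1.06 (1.02 to 1.11), with 3250 and 4901 normalized counts in the DGKζ-deficient library and 2964 and 4618 in the wild-type library. The intervals of these subunits overlap.

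Wars and Vars were the cytosolic genes that did not follow the others. Wars, the tryptophan enzyme, was read at 4601 normalized counts in the DGKζ-deficient and 4507 in the wild-type library (1.02-fold, 0.977 to 1.07), an interval that includes 1. Vars, the valine enzyme, was the 1 cytosolic gene with a lower value in the DGKζ-deficient library, at 9825 against 12340 (fold 0.796, 0.773 to 0.820). Its log2 ratio of -0.33 was the lowest of all 36 genes, with 12.5% of compared genes below it.

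Among the mitochondrial genes, Aars2, the alanine enzyme, had the highest fold, at 737 normalized counts in the DGKζ-deficient library and 587 in the wild-type library (1.26-fold, 1.12 to 1.41). Yars2, the tyrosine enzyme, stood at 1322 and 1113 (1.19-fold, 1.09 to 1.29), and Tars2, the threonine enzyme, at 2428 and 2050 (1.18-fold, 1.11 to 1.26). Iars2, the isoleucine enzyme, stood at 3960 and 3503 (1.13-fold, 1.08 to 1.19). These 4 were the mitochondrial genes whose interval lay above 1.

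Lars2 and Vars2 were the mitochondrial genes whose interval lay below 1. Lars2, the leucine enzyme, was read at 2560 normalized counts in the DGKζ-deficient and 3195 in the wild-type library (fold 0.801, 0.756 to 0.849). Vars2, the valine enzyme, stood at 904 and 1031 (fold 0.877, 0.794 to 0.967). With Vars, both valine enzymes were thus lower in the DGKζ-deficient library.

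The other 10 mitochondrial genes had intervals that include 1. Sars2 (1.10-fold), Cars2 (1.09-fold), Ears2 (1.08-fold), Wars2 (1.08-fold) and Rars2 (1.08-fold) were on the higher side, for serine, cysteine, glutamate, tryptophan and arginine. Hars2 (1.03-fold), Fars2 (1.01-fold), Mars2 (fold 0.970), Nars2 (fold 0.969) and Pars2 (fold 0.930) lay close to 1, for histidine, phenylalanine, methionine, asparagine and proline. Ears2 rested on the fewest reads, 106 in the DGKζ-deficient and 288 in the wild-type library, and its interval of 0.858 to 1.36 is too wide to place it among the others.

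Cytosolic and mitochondrial genes for the same amino acid can be set side by side in 17 pairs, with Eprs set against both Ears2 and Pars2, and Farsa and Farsb both set against Fars2. The cytosolic gene had the higher log2 ratio in 15 of 17 pairs, with a median difference of 0.32 (cytosolic minus mitochondrial). The widest difference was that of the leucine genes, 1.03, where Lars was higher and Lars2 lower in the DGKζ-deficient library. Asparagine (0.78) and cysteine (0.74) followed, and these 3 pairs differed by more than 1.5-fold. Tryptophan (-0.08) and valine (-0.14) were the pairs in which the mitochondrial gene had the higher log2 ratio. A difference between genes of 1 library pair does not depend on how the libraries are scaled to each other, apart from the pseudocount.

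**Figure D3:**
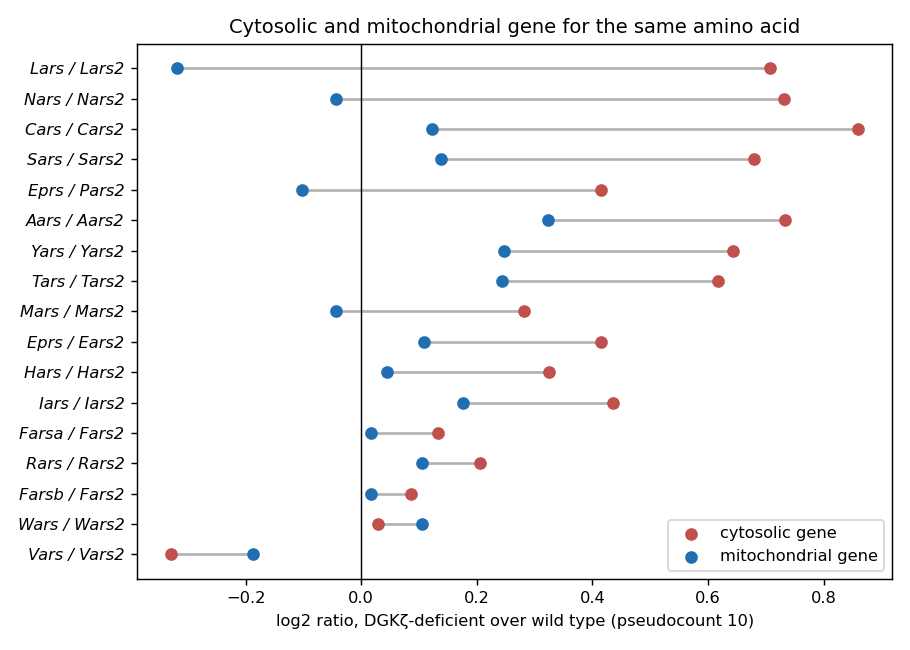
Log2 ratio of the DGKζ-deficient over the wild-type library for the cytosolic and the mitochondrial gene of each of the 17 pairs, ordered by their difference. The cytosolic point lies to the right in 15 pairs, farthest for Lars over Lars2 (1.03), and to the left for Wars and Vars.

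The level of the transcripts was compared per length, as reads per kb of transcript and 1000000 reads of the library. Library reads were those counted over 1 transcript row per gene, and this scales both libraries to equal totals. Cytosolic genes had a median level of 115 in the DGKζ-deficient and 107 in the wild-type library, and mitochondrial genes one of 13.2 and 13.3. Gars (293), Kars (257) and Sars (239) had the highest levels in the DGKζ-deficient library. In the wild-type library Kars (233), Gars (202) and Sars (159) led, so the order of Gars and Kars differed. Cars had the lowest cytosolic level, 52.7 in the DGKζ-deficient and 30.8 in the wild-type library. Tars2 was the highest mitochondrial gene, at 43.8 and 39.4, and Ears2 the lowest, at 3.85 and 3.78. In every one of the 17 pairs the cytosolic gene had the higher level, by 2.13-fold (Tars over Tars2) to 50.5-fold (Eprs over Ears2) in the DGKζ-deficient library and by 1.63-fold (Yars over Yars2) to 41.0-fold (Eprs over Ears2) in the wild-type library. For Aars the transcript model is long, 5750 bases, and 23.1% of its exon bases are shared with exons of Exosc6, so its level per length is uncertain.

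**Figure D4:**
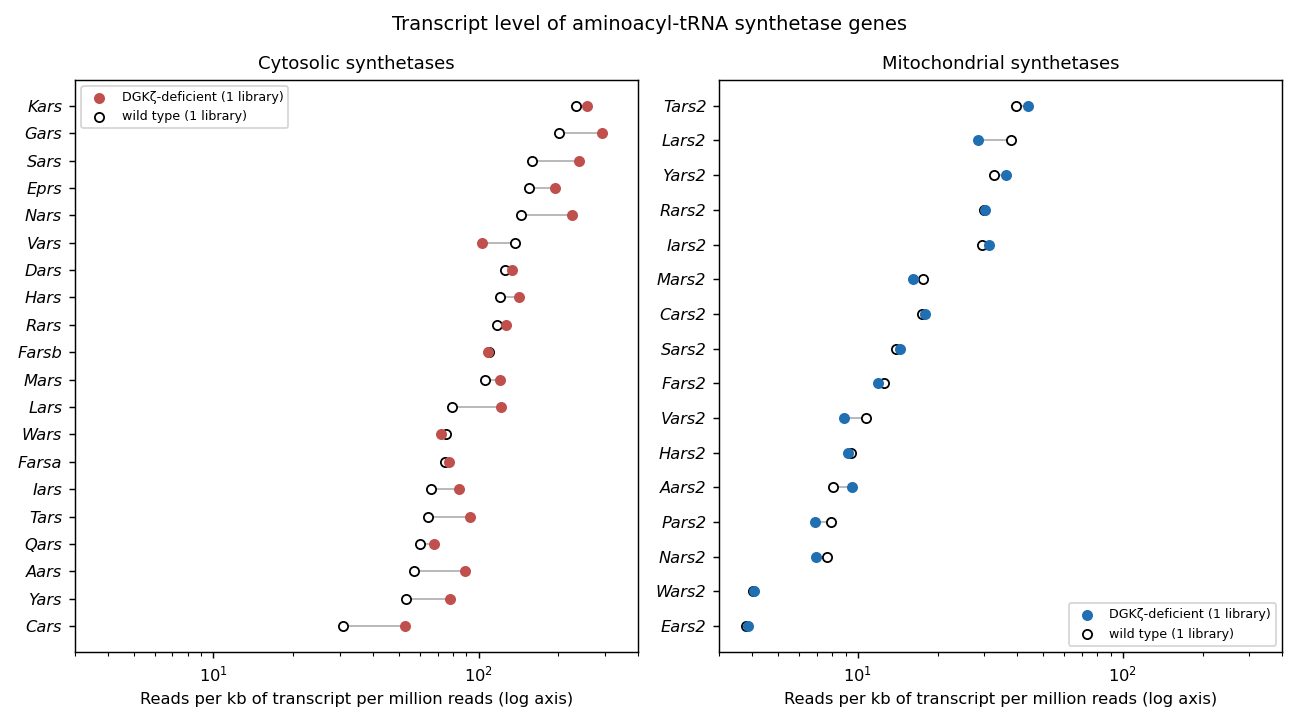
Reads per kb of transcript and 1000000 reads (log axis) of each cytosolic gene (left panel) and mitochondrial gene (right panel), with filled points for the DGKζ-deficient and open points for the wild-type library. Cytosolic levels lie between 30.8 and 293 and mitochondrial levels between 3.78 and 43.8.

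Within the cytosol, some synthetases sit in a large multisynthetase complex held together by the scaffold proteins Aimp1, Aimp2 and Eef1e1, and the rest act free or as small assemblies. Of the 8 genes of the complex (Dars, Eprs, Iars, Kars, Lars, Mars, Qars and Rars), 1 was called 1.5-fold higher, Lars. Of the 12 free enzymes 7 were called, where 4.53% of all compared genes were 1.5-fold higher. At equal totals Lars stayed called, while the free enzymes Gars, Tars and Yars did not. The median log2 ratio was 0.27 for the complex and 0.62 for the free enzymes, and all 8 genes of the complex had log2 ratios above 0. The scaffold genes had folds of 1.15 (1.08 to 1.22) for Aimp1, 1.07 (0.997 to 1.14) for Aimp2 and 1.003 (0.949 to 1.06) for Eef1e1, so 0 of 3 were called.

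Synthetases fall into class I and class II by the fold of their catalytic domain. Of the 9 cytosolic class I genes 3 were called 1.5-fold higher (Cars, Lars and Yars) and of the 10 class II genes 5 were called (Aars, Gars, Nars, Sars and Tars). Of all compared genes 4.53% were 1.5-fold higher. At equal totals Yars of class I and Gars and Tars of class II were not called. Eprs holds a domain of each class and was left out. The medians were 0.28 for class I and 0.47 for class II, and class I held the lowest gene, Vars, as well as the highest, Cars.

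Promoters were read for the genes in a RefSeq table (GRCm38.p6), which covers 250 bases before to 50 bases after each gene start and matched 27 of the 36 genes. Cars, Hars, Lars, Nars, Rars, Vars, Wars, Hars2 and Pars2 were not matched. The core of the composite element that ATF4 binds with C/EBP partners was searched as TGATGNAA on both strands, and the E-box of MYC as CACGTG, which reads the same on both strands. TGATGNAA stood in 5 of 13 cytosolic promoters (38.5%), in 0 of 14 mitochondrial promoters and in 1219 of 27025 genes of the table (4.51%). CACGTG stood in 4 of 13 cytosolic promoters (Aars, Farsb, Iars and Tars), in 1 of 14 mitochondrial ones (Ears2) and in 8.09% of the genes in the table. A match describes the letters only, and binding was not measured.

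The 5 promoters with TGATGNAA belong to Aars, Gars, Tars, Yars and Iars. The first 4 are among the genes called 1.5-fold higher, and Iars had the highest fold of those not called. Of the 5 called genes with a promoter in the table, 4 held the letters and Sars did not. Of the 8 cytosolic genes not called, 1 held them. This split depends on the scaling: at equal totals 1 of 2 called and 4 of 11 uncalled genes held the letters, and with the median of all genes set to 0 these were 2 of 3 and 3 of 10. The sequences are shown because no other synthetase promoter in the table held the letters. Synthetase genes without a promoter there, Cars, Lars and Nars among them, could not be read. The Sars promoter is added as the called gene without a match. Capitals mark TGATGNAA or its reverse complement, and base 251 of each run is the gene start.
Aars (chr8:111033592-111033891, plus strand): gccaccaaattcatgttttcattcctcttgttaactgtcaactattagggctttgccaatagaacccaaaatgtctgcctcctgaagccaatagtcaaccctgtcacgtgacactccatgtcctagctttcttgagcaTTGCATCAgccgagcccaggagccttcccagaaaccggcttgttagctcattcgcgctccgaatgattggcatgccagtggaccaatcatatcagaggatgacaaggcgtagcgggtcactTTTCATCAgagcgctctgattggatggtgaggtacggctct
Gars (chr6:55037751-55038050, plus strand): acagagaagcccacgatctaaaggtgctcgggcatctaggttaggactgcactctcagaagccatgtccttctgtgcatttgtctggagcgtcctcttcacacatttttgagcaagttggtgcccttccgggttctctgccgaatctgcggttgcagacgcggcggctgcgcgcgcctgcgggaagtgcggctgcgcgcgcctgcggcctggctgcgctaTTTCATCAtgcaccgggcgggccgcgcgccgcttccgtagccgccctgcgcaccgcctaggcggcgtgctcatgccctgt
Tars (chr15:11399609-11399908, minus strand): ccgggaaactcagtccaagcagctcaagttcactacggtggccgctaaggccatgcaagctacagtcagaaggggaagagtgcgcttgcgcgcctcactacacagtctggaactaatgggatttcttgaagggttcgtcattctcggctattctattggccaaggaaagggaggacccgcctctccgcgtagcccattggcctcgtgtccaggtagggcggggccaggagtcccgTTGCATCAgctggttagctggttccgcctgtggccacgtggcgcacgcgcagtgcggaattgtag
Yars (chr4:129189653-129189952, plus strand): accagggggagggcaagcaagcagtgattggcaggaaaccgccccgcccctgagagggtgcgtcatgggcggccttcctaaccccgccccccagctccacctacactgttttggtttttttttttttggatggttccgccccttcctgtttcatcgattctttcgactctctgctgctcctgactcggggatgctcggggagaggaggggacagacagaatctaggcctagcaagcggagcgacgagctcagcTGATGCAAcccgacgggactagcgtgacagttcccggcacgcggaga
Iars (chr13:49681880-49682179, plus strand): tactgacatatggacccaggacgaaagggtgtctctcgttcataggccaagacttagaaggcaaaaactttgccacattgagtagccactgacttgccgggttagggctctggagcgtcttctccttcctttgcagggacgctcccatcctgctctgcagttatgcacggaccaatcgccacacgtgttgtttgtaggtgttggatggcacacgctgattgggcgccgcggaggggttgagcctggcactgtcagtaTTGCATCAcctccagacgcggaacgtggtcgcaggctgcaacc
Sars (chr3:108445210-108445509, minus strand): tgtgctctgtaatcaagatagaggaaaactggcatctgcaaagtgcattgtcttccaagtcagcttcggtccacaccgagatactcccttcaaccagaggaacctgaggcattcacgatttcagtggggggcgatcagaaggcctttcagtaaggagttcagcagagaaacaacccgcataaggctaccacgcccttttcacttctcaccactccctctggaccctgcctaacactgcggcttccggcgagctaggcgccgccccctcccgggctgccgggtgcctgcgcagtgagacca

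Counted from the gene start, the match in Aars begins at base -112 with TTGCATCA and another at base 10 with TTTCATCA. In Gars it begins at base -30 with TTTCATCA and in Tars at base -15 with TTGCATCA. In Yars it begins at base 4 with TGATGCAA and in Iars at base 8 with TTGCATCA. The same 8 letters, or their reverse complement, thus stand in Aars, Tars, Yars and Iars.

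A list of ATF4 genes outside the synthetases was higher in the same library. The list was chosen with earlier results of these data known, so its counts are a description only. Of its 24 genes 22 were measured, with a median log2 ratio of 1.02. At 2-fold 11 were higher, where 1.3% of all compared genes were, and at 1.5-fold 15 were higher, where 4.53% were. By either rule 0 were lower, where 1.29% and 5.07% of all compared genes were. The genes called at 2-fold were Cth, Trib3, Slc7a3, Chac1, Asns, Slc7a11, Sesn2, Ddit4, Atf4, Cebpb and Pycr1. Their folds ran from 2.43 for Pycr1, a proline synthesis enzyme, to 18.9 for Cth, an enzyme that makes cysteine. Atf4 itself was read at 16042 normalized counts in the DGKζ-deficient and 6564 in the wild-type library. The highest synthetase log2 ratio, 0.86 for Cars, lies below that median. The list of stress kinases and their partners had 1 of 8 genes called at 2-fold, Ppp1r15a, which restores translation (2.10-fold, 1.87 to 2.35). Eif2ak4, which encodes GCN2, was read at 1130 and 928 normalized counts (1.22-fold, 1.11 to 1.33), and Eif2ak2 and Eif2s1 had log2 ratios of 0.46 and 0.28.

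The 11 other genes of tRNA charging and editing reported here were close to even. Of these 0 were called at 1.5-fold in either direction, where 4.53% of all compared genes were higher and 5.07% lower. Their median log2 ratio was 0.04, against 0.05 for all compared genes. The values farthest from 0 were those of Aarsd1 (0.20), an editing enzyme for mischarged alanine tRNA, Dtd1 (0.17), Trnt1 (0.10), which adds the tail that every tRNA needs for charging, and Sepsecs (0.10).

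The translation lists reported here had no gene called higher at 1.5-fold. The shares over all compared genes were 4.53% higher and 5.07% lower, so lists this short would hold few calls. In tRNA processing and modification 0 of 23 genes were called (median log2 ratio 0.11), and the largest values were those of Mto1 (0.44), Adat2 (0.40), Trit1 (0.36) and Nsun2 (0.29). In cytosolic elongation and termination 0 of 8 were called (median 0.23), led by Eef1d (0.34), Eef1g (0.27), Eef1b2 (0.25) and Etf1 (0.24). In mitochondrial translation 0 of 9 were called (median 0.19), led by Tsfm (0.36), Gfm1 (0.29), Mrrf (0.25) and Mtif2 (0.20). Of MYC and its partners, 1 of 6 was called, the repressor Mnt at a log2 ratio of -0.79. Mxd1, Mxd4 and Max stood at 0.33, -0.15 and -0.12, and Myc was read at 8590 normalized counts in the DGKζ-deficient and 8613 in the wild-type library.

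The choice of transcript row mattered little. Of the 36 genes 13 had more than 1 transcript row, and the log2 ratios of the rows of a gene differed by at most 0.07. Strand was not kept by the library kit, so reads from overlapping genes cannot be told apart. In the GENCODE M21 annotation 10 of the 36 genes share exon bases with another gene, 6 of them more than 5%. These are Aars with Exosc6, Hars with Hars2 and Hars2 with Hars, Farsb with Sgpp2, Iars2 with Rab3gap2 and 2010103J01Rik, and Vars2 with Gm20483. Exosc6 had a fold of 1.17 (1.09 to 1.27), lower than that of Aars.

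The authors' deposited table gives a log2 fold change and a p-value for each transcript row. Its largest absolute log2 fold change over all rows was 0.666, below the log2 ratio of 0.86 given above for Cars. The authors' log2 fold changes are thus not on the scale of the log2 ratios used here. In the authors' deposited table the log2 fold change of the synthetase genes ran from -0.25 for Vars to 0.57 for Cars, and the lowest p-value of the 36 was 0.0262, that of Cars. The lowest adjusted p-value of any row in the authors' deposited table was 0.999.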

How the data were processed

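The library kit was NEBNext Ultra RNA, per the labels' protocols, and it does not mark strand. STAR version 2, DESeq and the build mm9 are named in the submitters' processing notes, with no role stated. The authors deposited a signal per RefSeq transcript row, the normalized count. Divided by the smallest non-zero value of its column, 100% of values came out whole (relative tolerance 0.0001), so whole reads were recovered. A table of the authors' own comparison, also deposited, holds log2 fold changes, p-values with their adjusted form, and a score not used here. Of 33018 rows, 1 was left out, since an additional tab shifts its values.

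Folds, intervals and log2 ratios were computed with Python 3.11.15, numpy 2.4.6 and scipy 1.17.1. The 2-fold call and the intervals were checked on simulated counts that vary by counting error only. The 1.5-fold call was not checked in this way. The pseudocount was 10 and the minimum mean 50 normalized counts. Lengths are those of the GENCODE M21 transcript with the same RefSeq accession, or the RefSeq gene span where shorter. Without molecular identifiers reads are not single molecules, so intervals cover counting error only. All 36 genes, Dgkz, and in each list the 4 genes farthest from a log2 ratio of 0 and every gene called at 2-fold are named. Some listed genes are not reported here and were left out of the list counts. Xist, Myc, Eif2ak4, Exosc6 and Ifng were named after their values were seen. The members and lists were chosen with earlier results of these data known. Equal totals, a recentred median, other pseudocounts, other minimum means and other transcript rows were tried as alternatives. No count test was run on the recovered reads. Such a test would weigh counting error only, as the intervals do. With 1 library per genotype, variation between libraries of a genotype cannot be measured.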

Additional observations from a re-analysis of the deposited data

How the results depend on the processing

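With other pseudocounts (1 or 50), no minimum mean, a minimum mean of 200, the row with the lowest mean or the median over rows, 0 members moved beyond their counting interval and the same 8 genes were called at 1.5-fold; Ears2 fell below the minimum of 200. Among the settings tried on expression values, only the scaling of the libraries moved a value beyond that interval or changed a call. At equal totals 22 of 36 members moved beyond their interval, and 5 cytosolic genes were called higher (Aars, Cars, Lars, Nars and Sars). With the median of all genes set to 0, 12 moved and 6 were called, Yars in addition. The cytosolic median log2 ratio was 0.28 at equal totals and 0.32 after recentring. In the same order the median was 0.18 and 0.22 for the complex, 0.53 and 0.57 for the free enzymes, 0.19 and 0.23 for class I, and 0.38 and 0.42 for class II. Farsb, Wars, Fars2 and Hars2 fell below 0 at equal totals, and the last 3 of them after recentring, so that 9 of 16 mitochondrial genes stayed above 0 under either. The shift comes from the construction of these settings, which move every gene alike. The shorter core TGATG stood in 8 cytosolic and 4 mitochondrial promoters, and in 42.9% of all genes in the table. No replicate could be left out with 1 library per genotype. No paired analysis was possible because each genotype has a single library. Depth limits the mitochondrial genes most, since their reads are fewer.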

Other observations

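Grouped by the amino acid they charge, a split made after the values were seen, 6 of 9 cytosolic genes for dispensable amino acids were called 1.5-fold higher in the DGKζ-deficient library (Aars, Cars, Gars, Nars, Sars and Yars, with Dars, Eprs and Qars not called). For indispensable amino acids 2 of 10 were called (Lars and Tars). Of all compared genes 4.53% were 1.5-fold higher. At equal totals Gars, Yars and Tars were not called. The median log2 ratio was 0.64 for the first set and 0.26 for the second, and the ranges overlapped, at 0.18 to 0.86 and -0.33 to 0.71. Rars, not called at a log2 ratio of 0.20, was placed in neither set, a choice also made after the values were seen. Keeping it would add an uncalled gene to the set that held it. This split got no test.

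Wars is known as an interferon-γ target in human cells. Ifng was read at 5356 normalized counts in the DGKζ-deficient library and 1629 in the wild-type library (3.29-fold, 3.12 to 3.46). Wars stood at 4601 and 4507. Secreted interferon-γ was not measured, and whether it bears on Wars in these cells was not tested.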
